A study of Danio rerio with 15 samples.

Results

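Genes for making ribosomes and for RNA polymerase I were followed through the first 3 weeks of zebrafish fin regeneration. The genes are the rows of the deposited table whose symbols belong to the utp, rrp, nop, noc, nol or polr1 families, together with imp3, imp4, wdr12, wdr36, wdr43 and wdr75. The nucleolar genes fbl, ncl, npm1a, dkc1, nhp2, gar1, bop1, rrs1, ddx18, ddx21 and mphosph10 were added by name. The rule uses symbols alone and found 49 of the 14836 genes in the table. Of these, 47 reached a TPM (a length-normalised transcript abundance that sums to 1000000 in each library) of 1 in at least 3 libraries and were tested among 10235 genes.

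Every library came from fins of wild-type fish, given as WT in the labels, and 10 animals were pooled for each. The tissue reached 1 bone segment to either side of the plane of amputation. It was collected at 0, 4, 7, 14 and 21 days post amputation (dpa), with 3 separate pools at each of the 5 time points and no treatment other than amputation. The series text gives 3.5 days for the second time point and the sample labels give 4, and that group is called 4 dpa here. Strain, age and which fin was cut are not given.

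Ribosomes are built in the nucleolus, where RNA polymerase I transcribes a long precursor of the ribosomal RNAs. Small nucleolar ribonucleoproteins (snoRNPs) modify this precursor, those of the C/D type by methylation and those of the H/ACA type by converting uridine to pseudouridine. The small-subunit processome and the large-subunit assembly factors then fold it, cut it and load it with ribosomal proteins. A regenerating fin regrows from a proliferating blastema under a wound epidermis, and dividing cells in general use much of their transcription for new ribosomes.

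The libraries differed in ways that touch all members. The share of TPM taken by 1 gene that RefSeq types as rRNA lay between 2.26% and 71.6%, and relative depth, read from the steps between low TPM values, varied 5.66-fold. Values were therefore divided by a median-of-ratios factor per library (0.575 to 1.48) and are called scaled TPM. The same steps divided the libraries into a set A of 8 (all of 0 and 4 dpa, and replicates 1 and 3 of 7 dpa) and a set B of 7 (the rest). The number of sets was fixed at 2 in the clustering. Time and library set cannot be told apart between the 0 or 4 dpa group and the 14 or 21 dpa group. Only 7 dpa held libraries of both sets, with replicate 2 as its 1 library of set B. A term for library set in a fit therefore rests on the 7 dpa libraries alone. The comparison of 4 with 0 dpa lies within set A and that of 21 with 14 dpa within set B. The labels name no batch, and p-values measure the spread between these pools. No osteoblast, epidermal or fin mesenchyme marker listed was at 0 in any library, while 3 of 4 skeletal muscle markers (acta1b, mylpfa and tnnt3b) were at 0 in at least 1.

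Members spanned a wide range of abundance. The histone and ribosomal protein chaperone gene npm1a was the most abundant, with a mean of 70.8 scaled TPM over the 15 libraries. It was followed by nop53 at 56.4, nop10 at 50.3, fbl at 36.9, nop56 at 34.2 and nhp2 at 24.9. Of these 6 leading genes, 4 encode snoRNP core proteins (nop10, fbl, nop56 and nhp2). Means lay above 50 scaled TPM for 3 tested members, between 10 and 50 for 10, between 5 and 10 for 11 and under 5 for 23. The lowest tested member was polr1b, which encodes the second-largest subunit of RNA polymerase I, at 1.05. The 2 members below the filter were nol8, from 0.367 to 0.981 scaled TPM, and nol4lb, from 0.147 to 1.13. The symbol of nol4lb meets the pattern, but no role in ribosome assembly was assigned to it here.

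**Figure D1:**
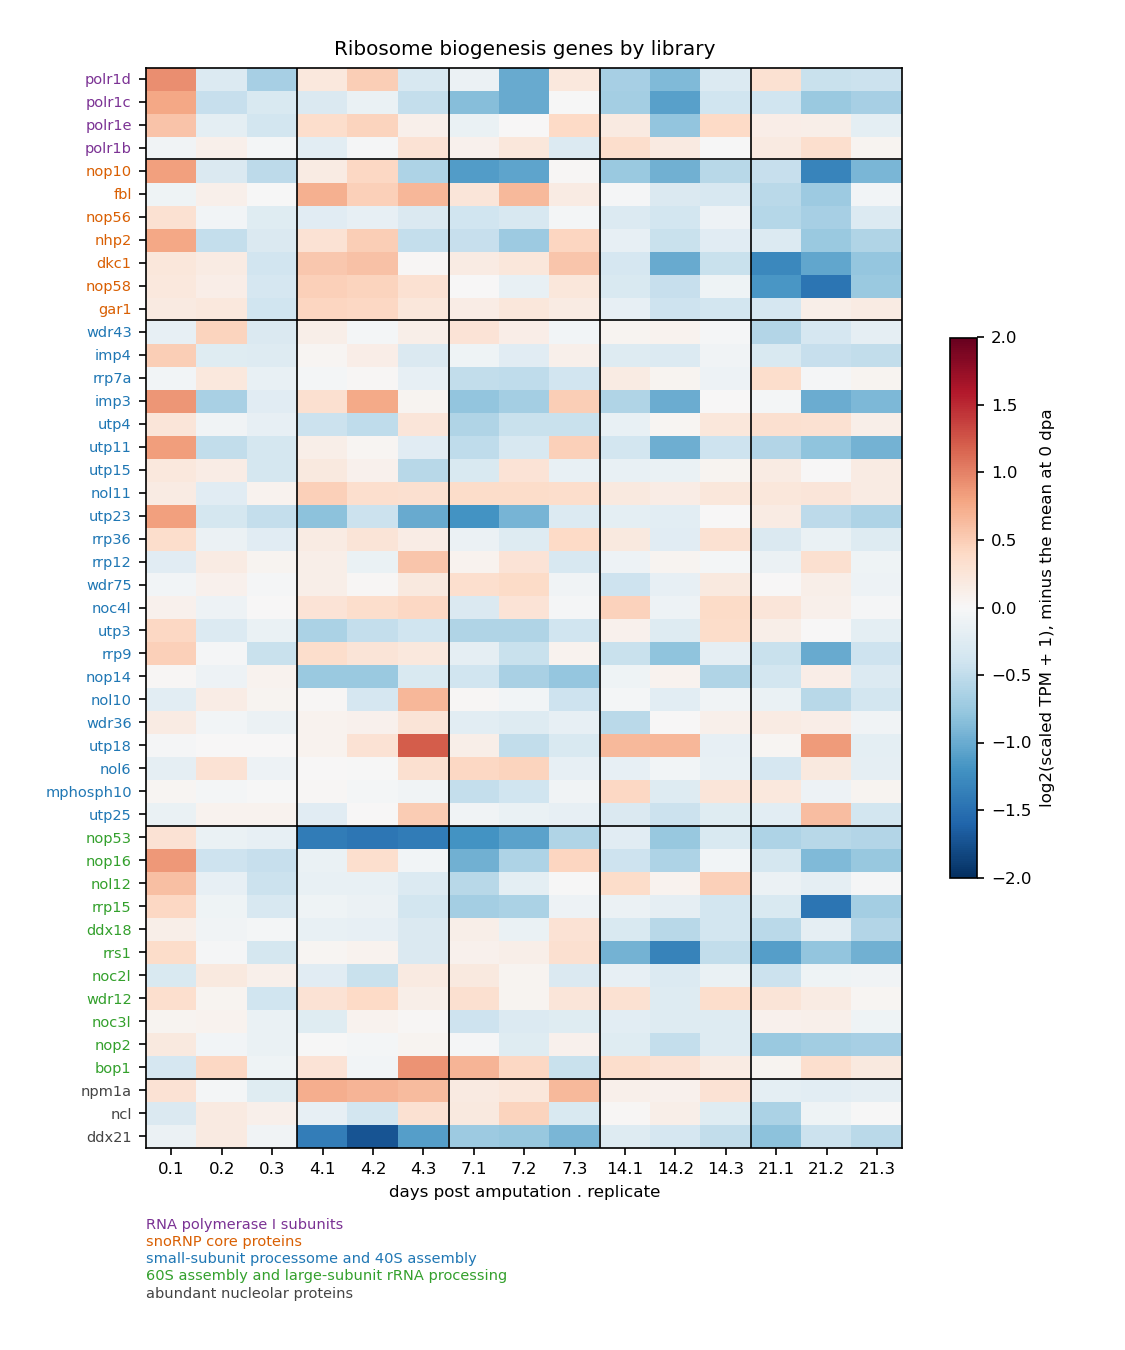
Each row is a tested member grouped by role and each column a library, written as days post amputation and replicate. Colour gives log2(scaled TPM + 1) minus the gene's mean at 0 dpa. Most rows stay pale, ddx21 and nop53 are dark blue at 4 dpa, and nop58 and dkc1 are dark blue at 21 dpa.

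Most members showed no change that passed the test, and those that did moved in different directions and at different times. Across the 5 time points 8 of the 47 members changed, 17.0%, against 26.7% of all genes tested (limma moderated F test, adjusted p under 0.05 over all genes). The 8 were ddx21, nop58, nop53, dkc1, rrs1, nop2, fbl and npm1a, with adjusted p from 0.000756 to 0.0214 in limma. They comprised 3 of 7 snoRNP core genes, 3 of 11 large-subunit assembly genes and 2 of 3 genes for abundant nucleolar proteins. None of the 4 member genes for RNA polymerase I subunits and none of the 22 small-subunit processome genes was among them. The mean log2(scaled TPM + 1) over the 47 members was 3.05 ± 0.22 (SD, n = 3) at 0 dpa and 3.05 ± 0.01 at 4 dpa. It was then 2.90 ± 0.11 at 7 dpa, 2.87 ± 0.12 at 14 dpa and 2.78 ± 0.03 at 21 dpa, beside a pooled SD within time points of 0.124. The time point of the highest mean log2(scaled TPM + 1) was 4 dpa for 22 members, or 46.8%, against 25.2% of all genes. It was 0 dpa for 11 members, beside 26.7% of all genes, and 7 dpa for 6, beside 11.4%. It was 14 dpa for 3 members, beside 16.1%, and 21 dpa for 5, beside 20.5%. The lowest mean on this log2 scale fell at 21 dpa for 21 members, or 44.7%, against 22.6% of all genes. These orderings carry no test.

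At 4 dpa npm1a was higher than at 0 dpa and ddx21 and nop53 were lower. These 3 were the members that passed the test, 1 higher of 47 beside 7.87% of all genes, and 2 lower beside 7.26%. A further 2 higher members and 3 lower ones had an unadjusted p under 0.05 in limma without passing the adjustment. Over all 10235 genes 1404 were higher and 1532 lower at that level, called genes included. The median log2 change of the members was 0.05, against -0.03 over all genes. The standard error of a member's change had a median of 0.20, and the 95% interval lay within 1 log2 unit of 0 for 39 of the 47.

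The shares of members called lower at 21 dpa lay near those of all genes, and the difference was not tested. At 21 against 0 dpa 5 of 47 members fell (nop58, dkc1, rrs1, nop2 and ddx21), beside 7.33% of all genes, and none rose in limma, beside 6.27%. No member was higher at an unadjusted p under 0.05 in limma and 13 were lower, beside 1377 and 1525 of all 10235 genes. The members' median log2 change was -0.20, against -0.04 over all genes. At 21 against 4 dpa 7 members fell, beside 11.8% of all genes, and 2 rose, beside 10.2%, with a median of -0.24 against -0.01. Those that fell were nop58, dkc1, fbl, rrp9, npm1a, rrs1 and nop2, and those that rose were ddx21 and nop53. The comparisons of 21 dpa with 0 and with 4 dpa share the 21 dpa libraries, and those of 4 and 21 dpa with 0 dpa share the 0 dpa libraries. With library set as a term of the limma fit, no member was called at 21 against 0 dpa and fbl was the 1 member called at 21 against 4 dpa. In that fit 0.303% and 2.54% of all genes were called in either direction. Its set term rests on 1 set B library of 7 dpa, so a call lost or kept there cannot tell set from time. In the deposited TPM without scaling, no member was called at 4, 7, 14 or 21 against 0 dpa, beside 5.19%, 0.303%, 1.94% and 1.92% of all genes in either direction.

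The comparisons between these gave 0 to 2 called members each. At 7 against 0 dpa 2 members fell (nop53 and ddx21), beside 2.45% of all genes, and none rose in limma, beside 2.53%, where 1 was higher and 8 lower at an unadjusted p under 0.05. Over all 10235 genes 977 were higher and 1144 lower at that level, and the members' median was -0.12. At 14 against 0 dpa rrs1 alone fell, beside 5.59% of all genes, and none rose in limma, beside 4.56%, while 0 were higher and 5 lower at an unadjusted p under 0.05. Over all genes 1194 were higher and 1338 lower at that level, and the members' median was -0.19. From 7 to 14 dpa rrs1 was again the 1 member that fell, beside 1.86% of all genes, and none rose in limma, beside 1.6%. At an unadjusted p under 0.05 there, 7 members were higher and 5 lower, beside 848 and 866 of all genes. No member was called between 4 and 7 dpa by limma, where 1.13% of all genes rose and 2.5% fell. At an unadjusted p under 0.05 there, 2 members were higher and 2 lower, beside 733 and 890 of all genes. None was called between 14 and 21 dpa by limma either, where 0.684% of all genes rose and 0.723% fell. There 0 members were higher and 3 lower at an unadjusted p under 0.05, beside 534 and 566 of all genes. Without replicate 1 or without replicate 2 of 7 dpa, neither fall at 7 dpa passed the test. Of all genes 1.91% and 1.58% were called in either direction in these fits, beside 4.98% in the main fit.

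**Figure D2:**
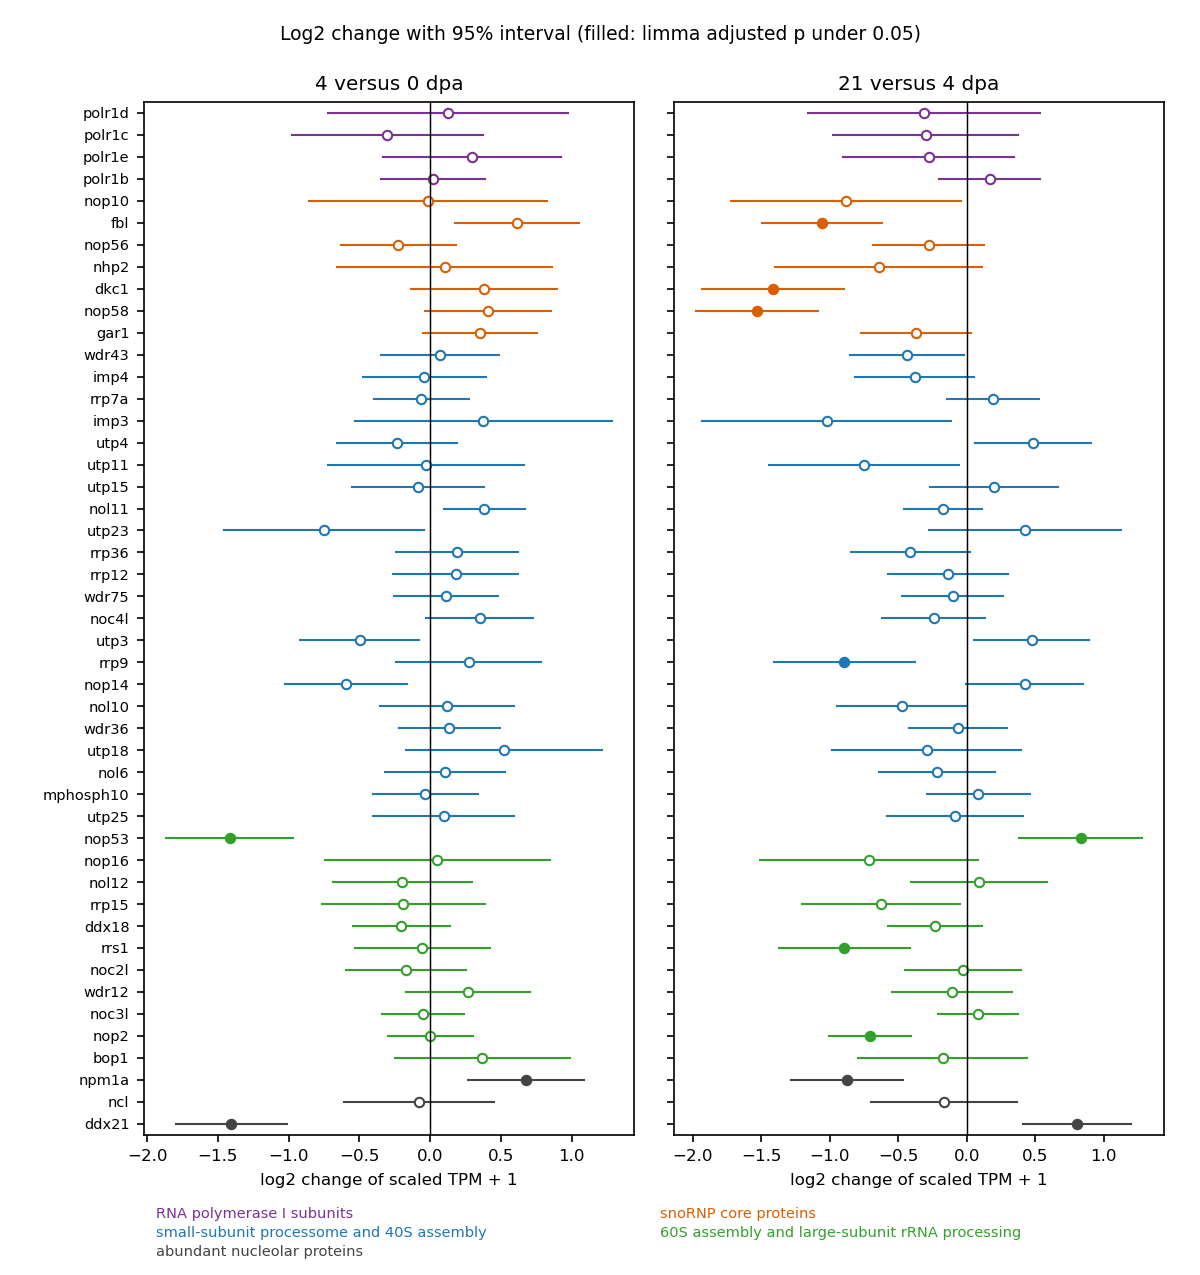
Log2 change of scaled TPM + 1 for each tested member at 4 versus 0 dpa (left) and 21 versus 4 dpa (right). Points are estimates, lines are 95% intervals and filled points passed the limma test at an adjusted p under 0.05. Filled points number 3 on the left and 9 on the right, where ddx21 and nop53 lie on the opposite side of 0 from the other 7.

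No RNA polymerase I subunit gene among the members was called in limma. By the limma F test none of these genes had an unadjusted p under 0.05 (0 of 4), beside 4025 of all 10235 genes. They are the 4 genes in the table whose symbols begin with polr1. These were polr1b, polr1c and polr1d, of which polr1c and polr1d also serve RNA polymerase III, and polr1e. Subunit genes under other symbols were not counted, so these 4 do not stand for the whole enzyme. The scaled TPM of polr1b was 0.844, 1.08 and 0.872 in replicates 1, 2 and 3 at 0 dpa, and 0.674, 0.892 and 1.37 at 4 dpa. At 21 dpa it was 1.19, 1.42 and 1.01. These ranges overlapped, and its log2 change at 4 dpa was 0.02 ± 0.17 (SE; 95% interval -0.35 to 0.39). For polr1c the values were 13.6, 5.17 and 5.90 at 0 dpa and 5.95, 6.75 and 5.15 at 4 dpa. At 7 dpa they were 3.73, 3.23 and 7.51, at 14 dpa 4.32, 3.01 and 5.45, and at 21 dpa 5.50, 4.07 and 4.41. Replicate 1 of 0 dpa stood far above its 2 partners, which lay among the values of the other time points. The log2 change of polr1c was -0.30 ± 0.32 at 4 dpa and -0.72 ± 0.32 at 14 dpa, the latter with an adjusted p of 0.172 in limma and an unadjusted p of 0.0373. The pattern was alike in polr1d, with 18.2, 7.29 and 5.36 at 0 dpa, 10.6, 13.1 and 7.04 at 4 dpa and 11.4, 6.40 and 6.46 at 21 dpa. Its change at 4 dpa was 0.13 ± 0.40, with an interval from -0.72 to 0.97. Values of polr1e were 6.15, 3.21 and 2.73 at 0 dpa and 5.15, 5.56 and 4.17 at 4 dpa, which overlap, and its change was 0.30 ± 0.29. An interval as wide as that of polr1d leaves room for a rise of nearly 1 log2 unit or a fall of up to 0.72.

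The 3 high values of polr1c, polr1d and polr1e at 0 dpa came from the library with the lowest rRNA gene share, 2.26%, and the greatest depth. At each of the 5 time points these 3 genes, and also nop10, nop16, imp3, imp4 and utp23, were highest in the library with the lowest rRNA gene share. These 8 members are 17.0% of those tested, against 13.7% of all genes. At 4 of the time points this was so for 9 members, 19.1% against 12.9% of all genes, and at 3 for 9, 19.1% against 12%. At 2 time points it was so for 6 members, 12.8% against 12.7%, and at 1 for 4, 8.51% against 17.3%. For 11 members, among them ddx21, fbl, ncl, bop1 and polr1b, this was so at none of the time points, 23.4% against 31.4% of all genes. The share's part in the results was not tested beyond the fit that holds it as a term. With that term 17 members changed over time, beside 43.7% of all genes.

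The snoRNP core genes had the lowest median log2 change of the 5 roles at 21 dpa, both against 0 dpa (-0.54) and against 4 dpa (-0.88). Their mean log2(scaled TPM + 1) at 0 dpa was 4.69 ± 0.33 (SD, n = 3), and at 4 dpa it reached 4.92 ± 0.22. It then went to 4.64 ± 0.23 at 7 dpa, 4.31 ± 0.16 at 14 dpa and 4.04 ± 0.19 at 21 dpa. At 4 against 0 dpa none of the 7 was called, and their median change was 0.35. At an unadjusted p under 0.05 in limma 1 was higher, beside 1404 of all 10235 genes. At 21 against 4 dpa 3 of the 7 fell (nop58, dkc1 and fbl), beside 11.8% of all genes, and none rose in limma, beside 10.2%, nor at an unadjusted p under 0.05. With library set as a term of the fit only fbl of the 3 passed. The deposited TPM and upper-quartile scaling each gave 3 calls, with medians of -1.31 and -0.78. Of all 10235 genes 857 and 1004 fell in these fits, beside 1203 in the main fit. The next lowest median of a role was -0.44 at 21 against 0 dpa (large-subunit assembly) and -0.29 at 21 against 4 dpa (RNA polymerase I subunits). Differences between roles were not tested.

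The C/D snoRNP gene nop58 encodes a core scaffold of the methylation particles. Its scaled TPM was 20.1, 19.0 and 13.4 in replicates 1, 2 and 3 at 0 dpa and 24.4, 23.9 and 21.7 at 4 dpa. It was 17.4, 15.6 and 20.3 at 7 dpa, 13.8, 12.2 and 16.3 at 14 dpa, and 7.20, 5.65 and 9.90 at 21 dpa. All 21 dpa values lay below every value at the other time points. The gene fell by 1.12 ± 0.21 (SE) on the log2 scale at 21 against 0 dpa, with an adjusted p of 0.00323 in limma. Against 4 dpa it fell by 1.53 ± 0.21 (limma, adjusted p = 0.000166). Its change from 0 to 4 dpa was 0.41 ± 0.21, with an adjusted p of 0.215 in limma, although the 2 groups did not overlap. Within library set B, replicate 2 of 7 dpa had 15.6, inside the 14 dpa range and above all 21 dpa values.

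Fibrillarin, fbl, is the methyltransferase of the same particles. Its values were 31.8, 36.3 and 33.6 at 0 dpa, 55.9, 47.2 and 54.2 at 4 dpa, and 40.1, 53.4 and 38.0 at 7 dpa. They were 33.2, 27.6 and 27.0 at 14 dpa and 22.8, 19.96 and 32.6 at 21 dpa. Every 4 dpa library was above every 0 dpa library, while the 21 dpa values overlapped those at 0 dpa. From 0 to 4 dpa the log2 change was 0.61 ± 0.20, which missed the threshold with an adjusted p of 0.0575 in limma. From 4 to 21 dpa fbl fell by 1.06 ± 0.20 (limma, adjusted p = 0.00202). This call held in all 26 alternative analyses, with a highest adjusted p of 0.0436 in limma. They include the fit with library set as a term, which rests on the set B library of 7 dpa. That library had 53.4, above the set A libraries of 7 dpa, so a call kept in that fit cannot tell set from time.

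Dyskerin, dkc1, is the pseudouridine synthase of the H/ACA particles. It stood at 21.0, 19.9 and 13.3 scaled TPM at 0 dpa, 26.4, 27.0 and 18.1 at 4 dpa and 19.9, 20.9 and 26.6 at 7 dpa. By 14 dpa it was at 13.9, 8.30 and 12.7, and by 21 dpa at 6.70, 8.14 and 9.92. The 21 dpa libraries lay below all libraries of 0, 4 and 7 dpa and overlapped those of 14 dpa. The log2 change was -1.03 ± 0.24 at 21 against 0 dpa (limma, adjusted p = 0.0113) and -1.42 ± 0.24 at 21 against 4 dpa (adjusted p = 0.000838). Inside set B, replicate 2 of 7 dpa had 20.9 and the 14 and 21 dpa libraries had between 6.70 and 13.9. With library set in the fit, the change at 21 against 4 dpa was -1.29 and did not pass.

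The other H/ACA genes did not pass. For nop10, whose small protein binds dyskerin, the values were 114, 52.4 and 44.3 at 0 dpa, 72.1, 86.4 and 41.4 at 4 dpa, and 46.6, 25.1 and 33.7 at 21 dpa. The spread within 0 dpa was wider than any difference between means, and the log2 change at 4 dpa was -0.01 ± 0.39. Its change at 21 against 4 dpa was -0.88 ± 0.39 (limma, adjusted p = 0.127). Mean levels of nhp2 went from 29.4 at 0 dpa to 18.5 at 21 dpa, where the 0 dpa replicates had 47.0, 19.2 and 21.9. Those of gar1 were 7.59, 9.80, 8.56, 5.80 and 7.43 at 0, 4, 7, 14 and 21 dpa. For nop56, of the C/D particles, the mean went from 40.8 at 0 dpa to 28.3 at 21 dpa.

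**Figure D3:**
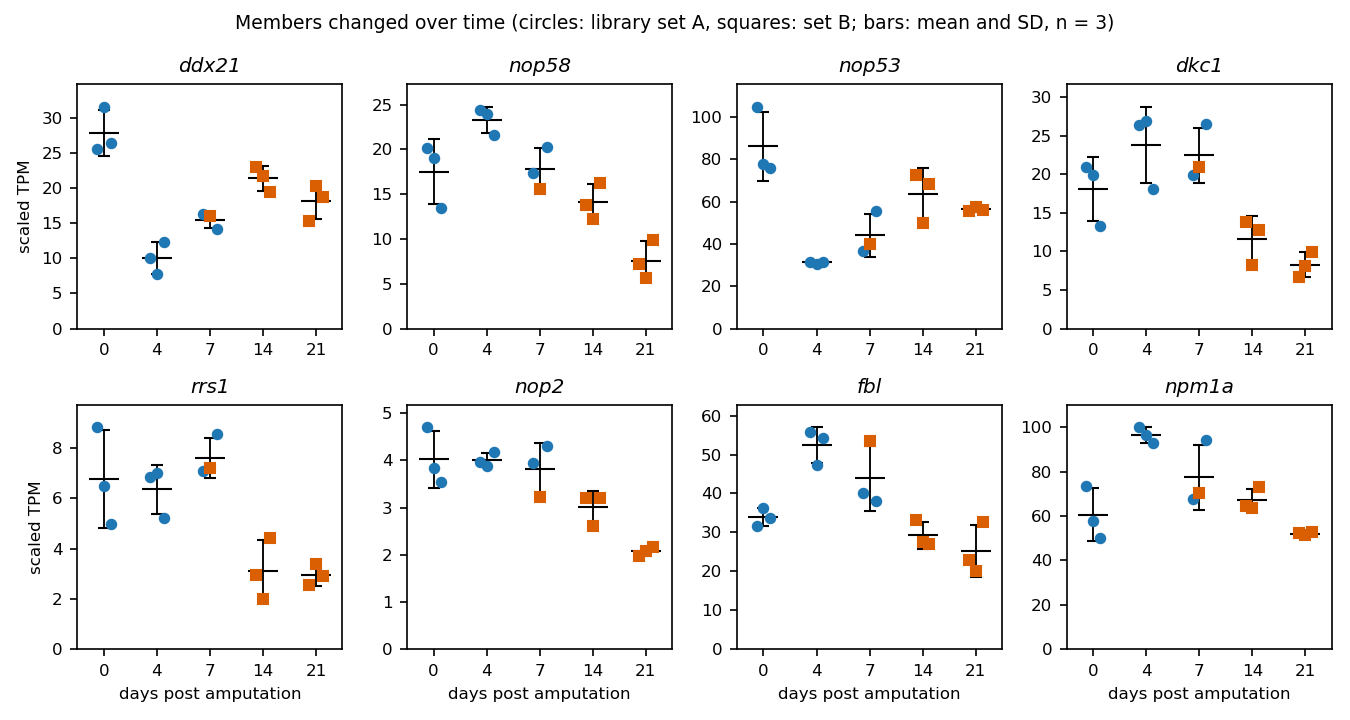
Scaled TPM of the 8 members that changed over time, by days post amputation. Points are libraries (circles for library set A, squares for set B), and bars give the mean and SD of 3 libraries. Different courses can be seen: ddx21 and nop53 are lowest at 4 dpa, while nop58, dkc1, nop2, fbl and npm1a are lowest at 21 dpa and rrs1 is low at 14 and 21 dpa.

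None of the 22 genes of the small-subunit processome and small-subunit assembly changed by the F test in limma. By that test 5 had an unadjusted p under 0.05, beside 4025 of all 10235 genes. In the single comparisons 1 gene was called. Log2 changes at 4 dpa ran from -0.75 (utp23) to 0.52 (utp18), with a median of 0.10. At an unadjusted p under 0.05 in limma, 1 was higher (nol11, 0.38) and 3 lower (utp23, nop14 at -0.60 and utp3 at -0.50). Over all genes 1404 were higher and 1532 lower at that level. At 21 against 0 dpa none was called and 2 were lower at an unadjusted p under 0.05 in limma, beside 1525 of all genes. The median of the 22 was -0.01. The 1 called gene was rrp9, which encodes a protein of the U3 snoRNP. It was called at 21 against 4 dpa, where 11.8% of all genes fell, and it is named here after its values were seen. It had 4.53, 4.18 and 4.06 scaled TPM at 4 dpa and 2.20, 1.17 and 2.26 at 21 dpa, with no overlap. Its 0 dpa values of 5.02, 3.27 and 2.20 reached from one group to the other. From 4 to 21 dpa it fell by 0.89 ± 0.24 (limma, adjusted p = 0.0154). This call was lost in 3 of 25 alternatives: without replicate 1 of 4 dpa, without replicate 2 of 21 dpa, and with library set in the fit. In the last of these the change was -0.51 ± 0.43.

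Few of the 11 large-subunit assembly genes tested passed against 0 dpa. At 4 dpa 1 fell, beside 7.26% of all genes, and 1 fell at 7 dpa, beside 2.45%. At 14 dpa 1 fell, beside 5.59%, and 2 fell at 21 dpa, beside 7.33%. None rose at any of these times in limma or at an unadjusted p under 0.05, and the counts were not tested against the shares of all genes. The gene called at 4 and 7 dpa was nop53, whose yeast counterpart recruits the RNA exosome to the large-subunit precursor. Its scaled TPM was 105, 78.0 and 75.7 at 0 dpa and 31.7, 30.6 and 31.6 at 4 dpa. It stood at 36.7, 40.1 and 55.8 at 7 dpa, 72.6, 49.9 and 68.6 at 14 dpa, and 55.5, 57.7 and 56.2 at 21 dpa. All 4 dpa libraries lay below every library of every other time point. The log2 change was -1.42 ± 0.21 at 4 dpa (limma, adjusted p = 0.000378) and -0.96 ± 0.21 at 7 dpa (adjusted p = 0.0177). From 4 to 21 dpa the gene rose by 0.83 ± 0.21 (limma, adjusted p = 0.0110). The call at 4 dpa was lost in the deposited TPM alone among 27 alternatives, where the change was -1.05. That at 7 dpa passed in 12 of 15 analyses that left out 1 library and in 8 of 12 others. Leaving out replicate 1 of 0 dpa was among those that lost it.

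The genes called at 21 dpa were rrs1 and nop2, and rrs1 was also the one called at 14 dpa. The factor encoded by rrs1 helps to load the 5S particle in yeast, and nop2 encodes a cytosine methyltransferase of the large-subunit RNA. For rrs1 the values were 8.83, 6.50 and 4.96 at 0 dpa, 6.85, 7.00 and 5.24 at 4 dpa and 7.08, 7.21 and 8.54 at 7 dpa. They were 2.96, 2.01 and 4.42 at 14 dpa and 2.54, 3.40 and 2.91 at 21 dpa. The 14 and 21 dpa libraries were all below every earlier library. The log2 change was -0.92 ± 0.22 at 14 dpa and -0.95 ± 0.22 at 21 dpa against 0 dpa (limma, adjusted p = 0.0185 and 0.0117), and -1.10 ± 0.22 from 7 to 14 dpa (adjusted p = 0.0147). The set B library of 7 dpa had 7.21, above all other libraries of that set, which had between 2.01 and 4.42.

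The scaled TPM of nop2 was 4.70, 3.83 and 3.55 at 0 dpa, 3.97, 3.88 and 4.18 at 4 dpa and 3.94, 3.21 and 4.30 at 7 dpa. They were 3.21, 2.61 and 3.21 at 14 dpa and 1.97, 2.08 and 2.16 at 21 dpa. The 21 dpa libraries were below all others and close to one another. The set B library of 7 dpa had 3.21, level with the highest 14 dpa values and below the set A libraries of 7 dpa. The change at 4 dpa was 0.00 ± 0.14 (95% interval -0.30 to 0.30), and at 21 dpa it was -0.70 ± 0.14 (limma, adjusted p = 0.00476). The assembly gene bop1, of the complex it forms with wdr12, had 0.827, 2.08 and 1.17 at 0 dpa and 1.77, 1.21 and 3.31 at 4 dpa, which overlap. Its change was 0.37 ± 0.29, with an adjusted p of 0.444 in limma.

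The 3 genes for abundant nucleolar proteins went separate ways. Nucleophosmin, npm1a, rose early: it had 73.7, 58.0 and 50.2 scaled TPM at 0 dpa and 99.97, 96.7 and 93.0 at 4 dpa. Its values were 67.8, 70.2 and 94.5 at 7 dpa, 64.7, 63.8 and 73.1 at 14 dpa, and 52.2, 51.4 and 52.7 at 21 dpa. The 4 dpa libraries exceeded all at 0, 14 and 21 dpa, and the 21 dpa libraries lay within the range at 0 dpa. The set B library of 7 dpa had 70.2, inside the 14 dpa range and above all 21 dpa values. The rise at 4 dpa was 0.68 ± 0.19 on the log2 scale (limma, adjusted p = 0.0260), and from 4 to 21 dpa the gene fell by 0.88 ± 0.19 (adjusted p = 0.00443). The rise no longer passed without replicate 2 or 3 of 0 dpa, without replicate 1 or 2 of 4 dpa, in the deposited TPM, or with fewer libraries in the fit (adjusted p up to 0.230), and its size ranged from 0.56 to 1.05.

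The RNA helicase gene ddx21, whose human product binds RNA polymerase I transcripts and snoRNAs, took the opposite course. Its values were 25.6, 31.6 and 26.4 at 0 dpa and 10.03, 7.71 and 12.3 at 4 dpa. They were 16.3, 16.0 and 14.2 at 7 dpa, 23.0, 21.7 and 19.5 at 14 dpa, and 15.3, 20.4 and 18.7 at 21 dpa. All 0 dpa libraries lay above, and all 4 dpa libraries below, those of every other time point. The log2 change was -1.40 ± 0.18 at 4 dpa (limma, adjusted p = 0.000153), -0.80 ± 0.18 at 7 dpa (adjusted p = 0.0234) and -0.60 ± 0.18 at 21 dpa (adjusted p = 0.0454). The last of these passed in 3 of 15 analyses that left out 1 library and in 5 of 11 others. Those that lost it were the deposited TPM, upper-quartile scaling, a pseudocount of 0.1, the replicate block, only the 2 time points compared, and library set in the fit. From 4 to 21 dpa ddx21 rose by 0.81 ± 0.18 (limma, adjusted p = 0.00590). The call at 4 dpa was lost in the deposited TPM alone, where the change was -1.06. That at 7 dpa passed in 11 of 15 analyses that left out 1 library and in 7 of 12 others. Upper-quartile scaling and leaving out replicate 2 or 3 of 0 dpa were among those that lost it.

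Nucleolin, ncl, gave no call. It had 17.3, 24.3 and 22.9 scaled TPM at 0 dpa, 18.8, 16.3 and 26.4 at 4 dpa, and 13.4, 19.99 and 21.1 at 21 dpa. The groups overlapped, and the change at 4 dpa was -0.08 ± 0.25 (95% interval -0.61 to 0.45).

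Members followed a common course only in part. The correlation of each tested member with the mean of the others over the 15 libraries ran from -0.47 to 0.88, with a median of 0.33, and was below 0 for 12 members. The genes most like the mean were rrp9 and utp11, both at 0.88, and nop16 at 0.87. Those least like it were polr1b at -0.47, bop1 at -0.36 and ncl at -0.28. The points share libraries, scaling and rRNA gene share, so these values describe the libraries only.

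Other genes of the same pathway came from lists drawn up beside the members, and their changes are given here at 4 against 0 dpa only. Of 79 further ribosome assembly factors 2 rose at 4 dpa, beside 7.87% of all genes, and 7 fell, beside 7.26%, with a median log2 change of -0.07. Among those that fell were rsl24d1 (-2.01 ± 0.41), gtpbp4 (-1.48 ± 0.19) and rsl1d1 (-1.39 ± 0.25), the first 2 of which act on the large-subunit precursor. The RNA polymerase I transcription factor list had 4 tested genes, of which taf1b fell by 0.56 ± 0.13 (limma, adjusted p = 0.00883) and none rose. For ubtf, the factor that binds the ribosomal RNA gene promoter, the change was 0.10. At 4 against 0 dpa none of 12 exosome genes, 11 RNA polymerase II subunits and 6 RNA polymerase III subunits was called in limma. In these lists 0, 1 and 1 genes had an unadjusted p under 0.05 in limma at that time. Over all 10235 genes 1404 were higher and 1532 lower at that level. A list of 11 tested genes held those for Myc transcription factors, which drive ribosome production in many cells, and those for partner factors. Of these, mycn rose by 0.58 ± 0.14 and myclb fell by 1.24 ± 0.18 (limma, adjusted p = 0.0125 and 0.000400).

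Larger changes at 4 dpa were seen in genes for DNA replication, which rose, and for ribosomal proteins, some of which fell. Against shares of 7.87% higher and 7.26% lower over all genes, 29 of 35 replication genes rose and none fell, in limma or at an unadjusted p under 0.05, with a median log2 change of 1.23. The largest rises were in rrm2 (2.35 ± 0.21), tyms (2.21 ± 0.22) and fen1 (2.06 ± 0.29), which make deoxynucleotides or process Okazaki fragments. Of 81 cytosolic ribosomal protein genes 18 fell and none rose, with a median of -0.96. At an unadjusted p under 0.05 in limma 56 were lower and 0 higher, beside 1532 and 1404 of all 10235 genes. Among them rpl38 fell by 2.12 ± 0.42, rps28 by 1.94 ± 0.51 and rpl29 by 1.92 ± 0.48. Without replicate 1 of 0 dpa, the library with the lowest rRNA gene share, 3 ribosomal protein genes fell and the median was -0.58. In the deposited TPM none fell and the median was -0.59. Of all 10235 genes 513 and 44 fell in these fits, beside 743 in the main fit. With rRNA gene share as a term of the fit 43 ribosomal protein genes fell, beside 1298 of all genes. Between 4 and 21 dpa 31 replication genes fell, beside 11.8% of all genes, and 6 ribosomal protein genes rose, beside 10.2%. The latter count was 1 in the deposited TPM, 17 with upper-quartile scaling, 12 without replicate 1 of 0 dpa and 53 with rRNA gene share in the fit. Over all 10235 genes the rises in these fits numbered 136, 1251, 1121 and 1617, beside 1046 in the main fit. The differences between these lists and the members were not tested.

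**Figure D4:**
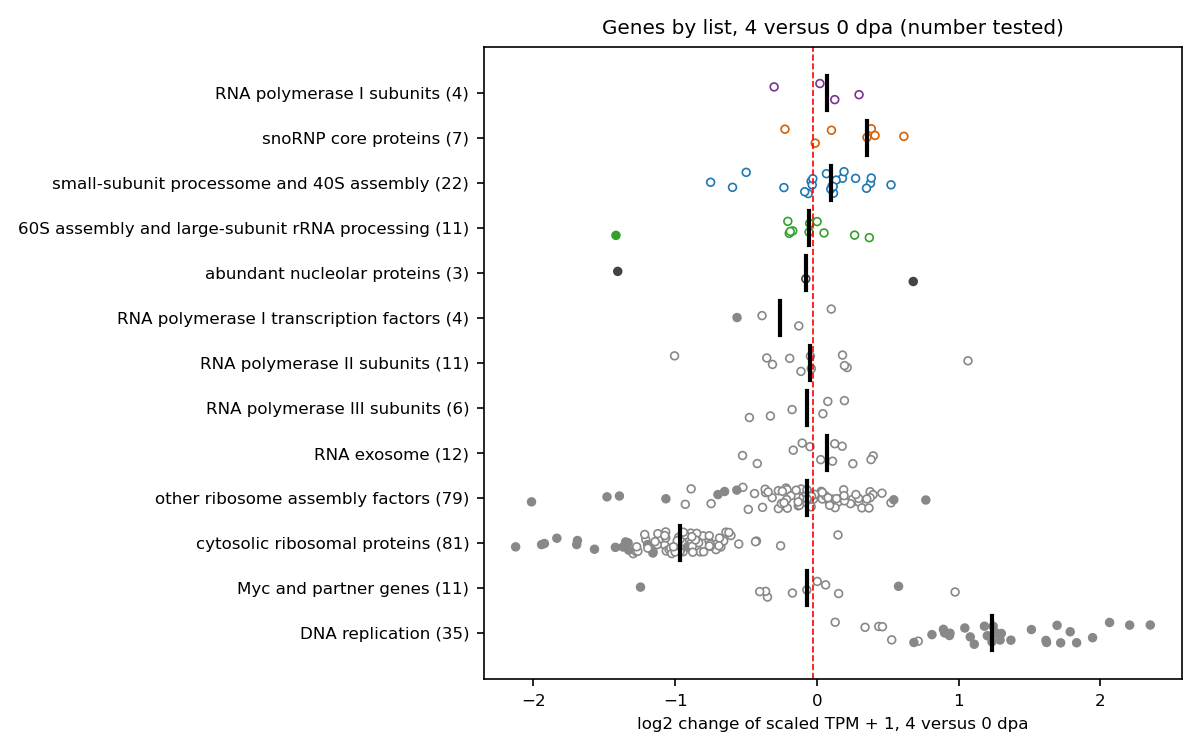
Log2 change of scaled TPM + 1 at 4 versus 0 dpa for each tested gene, by role of the members (coloured) and by other list (grey), with the number tested. Filled points passed the limma test at an adjusted p under 0.05, black bars are list medians and the red dashed line is the median of all genes. Replication genes lie to the right with a median of 1.23 and ribosomal protein genes to the left with a median of -0.96, while the roles of the members lie around 0.

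For several cell types summed marker levels did not overlap between some of the time points. Those at 0 and 21 dpa overlapped for the epidermal, osteoblast, blood vessel and erythrocyte markers. The summed scaled TPM of the 6 epidermal markers was 17980.2 to 25690.5 at 0 dpa, 10563 to 12675 at 4 dpa and 16705 to 18056 at 21 dpa. That of the 7 fin mesenchyme and blastema markers was 133 to 236 at 0 dpa, 728 to 988 at 4 dpa and 318 to 414 at 21 dpa. No gene of these lists was at 0 in a library. For the 7 osteoblast markers the sums were 2213 to 7661, 1442 to 2721 and 4329 to 7578 at 0, 4 and 21 dpa, so that 4 and 21 dpa did not overlap. The 3 blood vessel markers summed to 9.22 to 13.5 at 0 dpa, 22.6 to 23.6 at 4 dpa and 12.2 to 15.1 at 21 dpa, with cdh5 at 0 in at least 1 library. Sums of the 3 Schwann cell and nerve markers in the table were 5.95 to 7.11, 2.21 to 2.99 and 9.83 to 12.5, with no overlap among the same 3 times. The 4 erythrocyte markers, of which hbba2 was at 0 in at least 1 library, gave 9.82 to 82.3 at 0 dpa, 101 to 237 at 4 dpa and 69.5 to 90.1 at 21 dpa. The 4 pigment cell markers, of which dct was at 0 in at least 1 library, gave 18.8 to 26.6, 13.4 to 46.8 and 32.7 to 47.2 at these times, and the 4 skeletal muscle markers gave 1.69 to 2.69, 0.892 to 1.41 and 0.885 to 1.53. Sums of the macrophage and neutrophil markers overlapped among 0, 4 and 21 dpa. At 14 dpa the neutrophil sum was 3.41 to 4.83, above every library of the other time points (highest 2.75, at 21 dpa). Of the neutrophil markers 2 were in the table and 1 was tested, and the macrophage marker mfap4 was at 0 in at least 1 library. In bulk tissue, fewer cells of a type and less RNA per cell cannot be told apart, and the part of the tissue's makeup in the changes of the members was not tested.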

How the data were processed

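Bulk RNA-seq of 15 libraries, 3 pools of 10 wild-type fish at each of 5 time points, was deposited by the authors as 1 table of TPM for 14836 genes, and each column sums to 1000000. The submitters' processing notes name Trim Galore 0.6.7, cutadapt 3.5, Salmon 1.4.0 and the build danRer11, with no role or order. No coordinates or sequences are given. All 49 symbols matched the RefSeq table (assembly GRCz12tu), which was used for names and gene types. TPM carries no absolute depth, and reads shared between paralogs or overlapping genes could have been split in ways not given in the sources used here.

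TPM was divided by median-of-ratios factors from 10774 genes. Tests used limma 3.58.1 in R 4.3.3 on log2(scaled TPM + 1), with 1 mean per time point, an intensity trend, the 10235 genes that reached a TPM of 1 in 3 or more libraries, two-sided tests and Benjamini-Hochberg adjustment over all genes, called at an adjusted p under 0.05. The pseudocount of 1 understates changes of low genes. Tables were handled in Python 3.11.15, and the fit was tested on simulated data. Relative depth and the 2 library sets came from the commonest ratio of TPM values between libraries among 5462 low genes. Pairs within a set shared 1.27% to 17.7% of genes at that ratio (median 3.99%) and pairs across sets 0.496% to 1.61% (median 0.731%). The number of sets was fixed at 2. These shares also formed the sets, so they are no separate test of them, and their ranges overlap.

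The members and lists were chosen with earlier results of these data known. Genes named with values were, by role, the largest called changes at 4 dpa, those called against the majority, the largest called changes at 7, 14 and 21 dpa, the highest and lowest in level, the 3 smallest changes at 4 dpa, the 3 least like the others, and the RNA polymerase I subunits, fbl, ncl, npm1a and dkc1. Alternatives covered scaling, pseudocount, filter, variance model, a replicate block, fewer time points and leaving out each library. Fits with library set or rRNA gene share, or within 1 set, were chosen after seeing the data. A planned promoter motif count was not run, since no promoter sequences were used here.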

Additional observations from a re-analysis of the deposited data

How the results depend on the processing

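Counts and medians were recomputed under settings other than leaving out a library, giving 286 values. Of these, 239 stayed within 1.5 times the count or within 0.124 of the median (the pooled SD of the members' mean), and 47 moved. A count of 0 in both fits was taken as having stayed. The main medians at 4 and 7 versus 0, 14 versus 7 and 21 versus 14 dpa were themselves within 0.124 of 0. A change of sign there can therefore count as having stayed. The members' medians at 7 and 14 versus 0 dpa and from 7 to 14 dpa (-0.12, -0.19 and -0.04) changed sign in the deposited TPM. Among the separate values for named members, no called change reversed sign. The cause of the changes was not tested. In the deposited TPM, where the median of all genes shifts by 0.25 at 4 versus 0 dpa and by -0.34 at 21 versus 4 dpa, 1 member changed over time (nop58; 8.49% of all genes), 0 were called against 0 dpa (5.19%, 0.303%, 1.94% and 1.92% at 4, 7, 14 and 21 dpa) or from 7 to 14 dpa (0.664%), 0 rose at 21 versus 4 dpa (9.7% in either direction), and the members' medians were 0.35, 0.0089 and 0.20 at 4, 7 and 14 versus 0 dpa, -0.36, 0.23, -0.50 and -0.60 at 7 versus 4, 14 versus 7, 21 versus 14 and 21 versus 4 dpa. Upper-quartile scaling gave 1 fall at 7 versus 0 dpa, 2 from 7 to 14 dpa and 1 from 14 to 21 dpa. The shares of all genes called there in either direction were 4.92%, 3.31% and 1.6%. The members' median at 21 versus 0 dpa was -0.0635 in that fit, beside 0.0836 over all genes. From 7 to 14 dpa a pseudocount of 5, a TPM of at least 5 and no intensity trend each gave 2 falls. Of all genes 3.31%, 4.22% and 3.58% were called in either direction in these fits. A TPM of at least 5 gave a median of -0.39 at 21 versus 0 dpa, beside -0.153 over all genes. No intensity trend gave 2 rises at 4 dpa, where 15.3% of all genes were called in either direction. With only the 2 time points compared there were 0 rises at 4 dpa, 0 falls at 7 and 14 versus 0 dpa and from 7 to 14 dpa, and 3 at 21 versus 0 dpa. Of all genes 7.89%, 0.508%, 5.47%, 1.73% and 6.57% were called in either direction in these comparisons, in that order.

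Among settings chosen after seeing the data, library set as a term gave 3 members changed over time (ddx21, fbl and nop53), 0 falls at 7, 14 and 21 versus 0 dpa and from 7 to 14 dpa, and 0 rises and 1 fall at 21 versus 4 dpa. The shares of all genes called in that fit were 10.9% over time, 1.55%, 0.0391% and 0.303% at 7, 14 and 21 versus 0 dpa, 0.449% from 7 to 14 dpa and 2.54% at 21 versus 4 dpa. Within 1 set there were 0 rises at 4 dpa and 0 falls at 7 dpa, beside 8.68% and 0.215% of all genes called in either direction. With rRNA gene share as a term 17 members changed over time, 4 rose at 4 dpa, 2 fell at 14 versus 0 dpa, 1 rose and 1 fell at 7 versus 4 dpa, 2 rose and 3 fell at 14 versus 7 dpa, 1 fell at 21 versus 14 dpa and 12 fell at 21 versus 4 dpa. Of all genes 43.7% changed over time in that fit, and in either direction 25.3%, 18.3%, 8.36%, 8.95%, 3.23% and 33.7% were called in these comparisons.

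Leaving out 1 library gave 7 to 10 members changed over time, beside 19.6% to 31.2% of all genes. Rises numbered 0 to 2 at 4 versus 0 dpa, 0 to 1 at 7 versus 4 dpa and 2 to 3 at 21 versus 4 dpa, and 0 in every other comparison. Falls numbered 2 to 3 at 4, 0 to 2 at 7, 0 to 1 at 14 and 3 to 6 at 21 versus 0 dpa (3 without replicate 1 of 0 dpa), 0 to 2 at 14 versus 7, 0 to 1 at 21 versus 14, and 6 to 8 at 21 versus 4 dpa. Of all genes, 10% to 16.4%, 1.58% to 9.43%, 3.95% to 11.4% and 8.66% to 15.5% were called in either direction at 4, 7, 14 and 21 versus 0 dpa. At 7 versus 4, 14 versus 7, 21 versus 14 and 21 versus 4 dpa the shares were 1.54% to 3.95%, 1.24% to 4.06%, 0.655% to 1.76% and 14.9% to 23.8%. The fall of rrs1 at 14 dpa was lost without replicate 1 of 0 dpa or replicate 1 or 2 of 14 dpa. Medians ran from -0.04 to 0.10 at 4, -0.1985 to 0.0371 at 7, -0.25 to -0.09 at 14 and -0.32 to -0.16 at 21 versus 0 dpa, from -0.18 to -0.12 at 7 versus 4, -0.11 to 0.04 at 14 versus 7, -0.23 to -0.04 at 21 versus 14 and -0.28 to -0.18 at 21 versus 4 dpa.

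The labels do not say whether equal replicate numbers mark a pairing of libraries. Deviations from time point means correlated between -0.63 and 0.65 for the same number (median -0.02, 30 pairs). For other numbers they correlated between -0.72 and 0.82 (median 0.04, 60 pairs). These wide, overlapping ranges do not settle whether the numbers mark a pairing. With a replicate block 9 members changed over time, rrp9 in addition, beside 23.6% of all genes.

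Depth limits low members most: 4 dpa replicate 3 had 0.445 times the mean relative depth, and members with a mean under 5 scaled TPM number 23. For these, a call that missed the threshold does not show an even level.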
